A study of Homo sapiens with 4 samples.

Results

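Peaks of RNA bound to HuR were examined on the nuclear genes of the mitochondrial respiratory chain, the mitochondrial ribosome and the translocases that bring proteins into mitochondria. A peak was taken when the RefSeq transcript in its annotation belonged to a gene whose symbol begins with NDUF, SDHA to SDHD, UQCR, COX and a digit, ATP5, MRPL, MRPS, TIMM or TOMM. The rule took 36 of the 14149 peaks in the list, on 20 of the 3322 genes that carry a peak. Of these 20 genes, 19 code for protein and 1, SDHAP4, is a pseudogene of the complex II subunit SDHA. The same name pattern fits 212 nuclear protein-coding genes in RefSeq, 2 of them readthrough genes that join a member to its neighbour, so 193 had no peak and are described as unlisted.

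HuR, encoded by ELAVL1, binds U-rich and AU-rich RNA. RNA held by HuR was pulled down from lysates of MDA-MB-231, a human triple-negative breast cancer cell line, with a mouse antibody to HuR in 2 samples, and mouse IgG served as the control in 2 samples. The labels name no other treatment for either group, and RNA was sequenced without selecting poly(A) tails. What was analysed is a single peak list made by the authors, with no value for any 1 sample, so no spread between replicates, no IgG level and no p-value can be given, and the identity of the cells could not be checked against markers. The authors obtained HuR targets by comparison with IgG and kept peaks that matched a change in transcript abundance, by a criterion whose threshold is not stated, so a gene without a peak is unlisted and not shown to be unbound.

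The respiratory chain sits in the inner mitochondrial membrane, where complexes I to IV pass electrons from NADH and succinate to oxygen. Complexes I, III and IV pump protons, and ATP synthase uses the proton gradient to make ATP. A few core subunits are encoded in mitochondrial DNA and translated by the mitochondrial ribosome. All other subunits, every mitochondrial ribosomal protein and the assembly factors are encoded in the nucleus, made in the cytosol and imported through the TOM complex of the outer membrane and the TIM complexes of the inner membrane.

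Few of these genes carried a peak. It was found on 19 of the 212 protein-coding members, 8.96% (95% Wilson interval 5.81 to 13.6), where 15.4% of all 20039 nuclear protein-coding genes had one, so the share in the set lay below the background. The respiratory chain with its assembly factors had 8 of 110 genes (7.27%), the mitochondrial ribosome 8 of 77 (10.4%) and the import translocases 3 of 25 (12.0%). Among genes grouped by symbol as subunits of the chain, 5 of 88 had a peak (5.68%, interval 2.45 to 12.6). Among those grouped as assembly factors it was 3 of 22 (13.6%, interval 4.75 to 33.3), and these intervals overlap. The 88 also hold COX7A2L, ATP5IF1 and the readthrough genes NDUFC2-KCTD14 and ATP5MF-PTCD1, so they are not limited to structural subunits. No peak was annotated to any of the 20 ATP synthase genes, where the interval runs up to 16.1% and so includes the background, nor to the 9 genes of complex III or the 9 assembly factors of complex I. Complex II and its assembly factors had none on 8 protein-coding genes. The highest share in any group was that of complex IV assembly factors, with 3 of 9 genes. The small subunit of the mitochondrial ribosome had 5 of 28 and the large subunit 3 of 49, shares of 17.9% and 6.12% with overlapping intervals (7.88 to 35.6 and 2.1 to 16.5). Cytosolic ribosomal protein genes had a peak on 3 of 92 (3.26%).

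**Figure D1:**
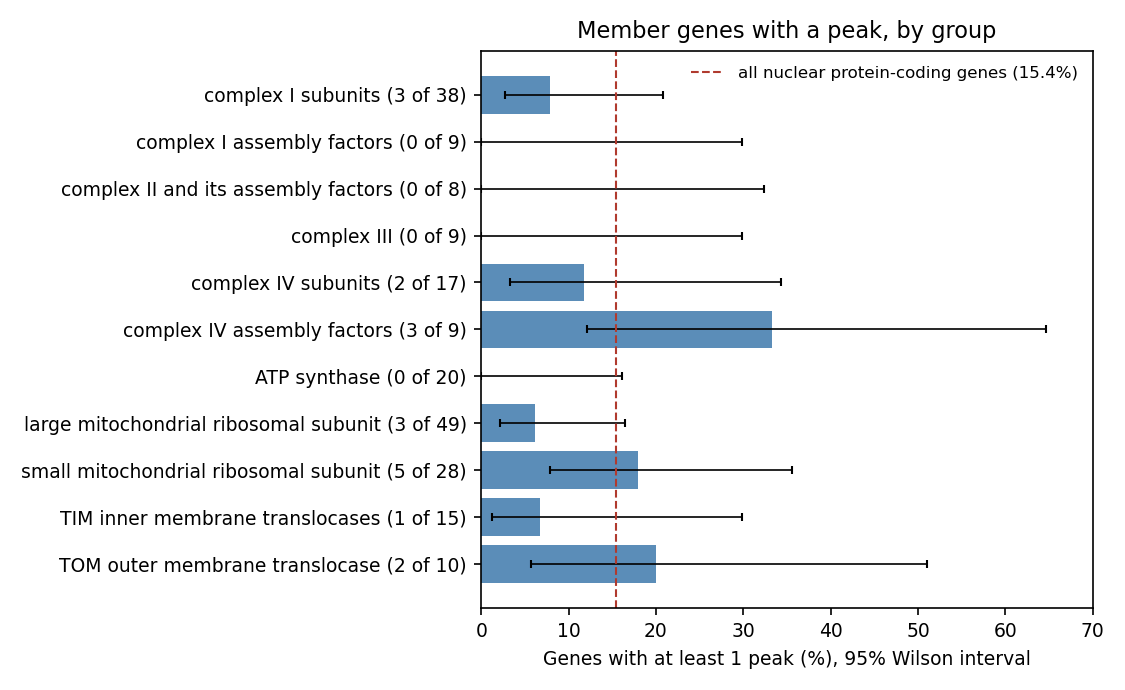
Share of protein-coding genes with at least 1 peak in each of 11 groups, with 95% Wilson intervals that cover counting error only; the dashed line is the share of all nuclear protein-coding genes (15.4%). Only complex IV assembly factors, the small ribosomal subunit and the TOM complex lie above the line, and the intervals of these 3 groups include it.

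Transcript length moved with these shares. Of the 212 members, 94 (44.3%) have a canonical GENCODE transcript under 1000 bases, compared with 8.97% of the other protein-coding genes, and none of the 94 had a peak. They include 55 genes grouped as subunits of the respiratory chain, 27 of them in complex I, and 26 genes of the mitochondrial ribosome. Other genes of that length had a peak in 1.36% of cases. From 1000 to under 2000 bases the members had 3 of 64 (4.69%) and other genes 4.26%. From 2000 to under 4000 bases the members had 9 of 34 (26.5%) and other genes 13.6%, and from 4000 bases upwards 7 of 20 (35.0%) and 29.9%. Had the members carried peaks at the rate of other genes in each of these 4 length classes, 14.6 of them would have had one, 6.89% against the 8.96% counted. The share of members was therefore lower than that of all genes when length was ignored. As counted, it was not lower than that of other genes of like length in the 3 classes from 1000 bases upwards. The class from 1000 to under 2000 bases rests on MRPL37, MRPL44 and MRPS17. All 3 had their peak on the strand opposite to the gene, and that of MRPL37 lay outside the gene. No share without such peaks was computed for other genes, so this class does not settle the comparison. The part of transcript length in the result was not tested, and the RNA level of these genes in the lysate was not measured in the list.

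**Figure D2:**
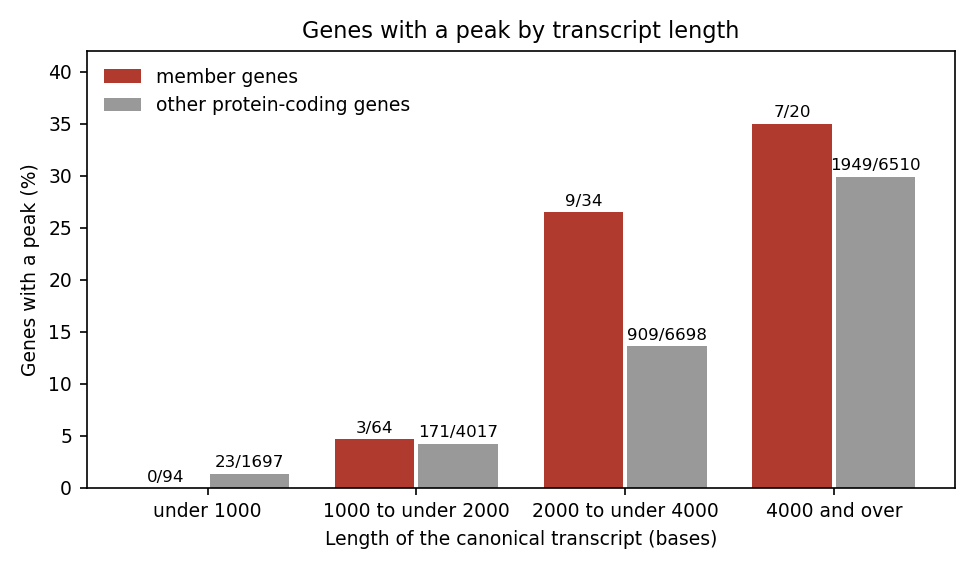
Share of genes with at least 1 peak by length of the canonical transcript, for member genes and for all other nuclear protein-coding genes with a GENCODE transcript; numbers above the bars are genes with a peak over all genes in the class. Both sets rise with length, and none of the 94 members under 1000 bases has a peak.

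The members with a peak had a median transcript of 2770 bases and a median 3′ UTR of 2003 bases, while the members without one had 1016 and 324.5 bases. Their shortest transcript was that of MRPL37, 1483 bases, whose peak lay outside the gene, and their longest that of MRPL42, 15557 bases. At least 1 ATTTA, the core of an AU-rich element, was found in the 3′ UTR of 17 of the 19 members with a peak (89.5%) and in 51.0% of those without. Other genes showed a like contrast, with 93.4% of those with a peak and 63.4% of those without. Per kilobase of 3′ UTR, however, the pentamer stood at 2.17 in the members with a peak and at 2.14 in those without. MRPL42 alone held 41 of the copies in the members with a peak. In other genes the pentamer stood at 2.8 with a peak and at 2.07 without. These are pooled counts for which no error was computed. A long 3′ UTR did not bring a peak in every case. Of the 20 members with transcripts of 4000 bases or more, 13 were unlisted, among them UQCRB, the ubiquinol-binding subunit of complex III, with 24 ATTTA in a 3′ UTR of 8108 bases. NDUFS1, the largest iron-sulfur subunit of complex I, had 20 in 9368 bases and was unlisted too, as was MRPL19 of the large ribosomal subunit with 25 in 6921 bases.

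The best peaks of these genes had a lower median score than those of other genes, but the interval of the log2 ratio includes 0. The peak score is HOMER's own value, and its scale is not stated. A step of 0.2447 was chosen as the best fit to scores between 10 and 100. Of these scores, 98.2% lay within 0.05 of a whole multiple of it, where 40.9% would by chance. A score was therefore read as a number of such steps, also above 100, where the step was not fitted. Each score was given an exact 95% Poisson interval that covers counting error only. It assumes that the steps are independent counts, which was not tested. The 36 peaks ran from 9.3 to 284.1 with a median of 19.45, where all peaks ran from 8.32 to 25897.6 with a median of 34.0. Of the 36, 13 (36.1%) reached that median, 9 (25%) lay at or above the upper quartile of all peaks, 83.4, and 1 was among the first 1000 peaks. By gene, the median of the best score was 19.95 for the members and 34.0 for the other 3302 genes, a log2 ratio of -0.77 with an interval of -1.07 to 0.64 from the spread over the 20 genes. That interval includes 0. It takes genes as the unit and leaves out the spread of the other genes and that between samples. It therefore cannot decide whether the scores of members and other genes differ. The ratio turned to 0.51 with exon and UTR peaks alone (medians 61.65 for 10 members and 43.3 for other genes) and to 0.10 with genes taken from the gene column. COX7A2L alone held 43.5% of the summed score of the 36 peaks.

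**Figure D3:**
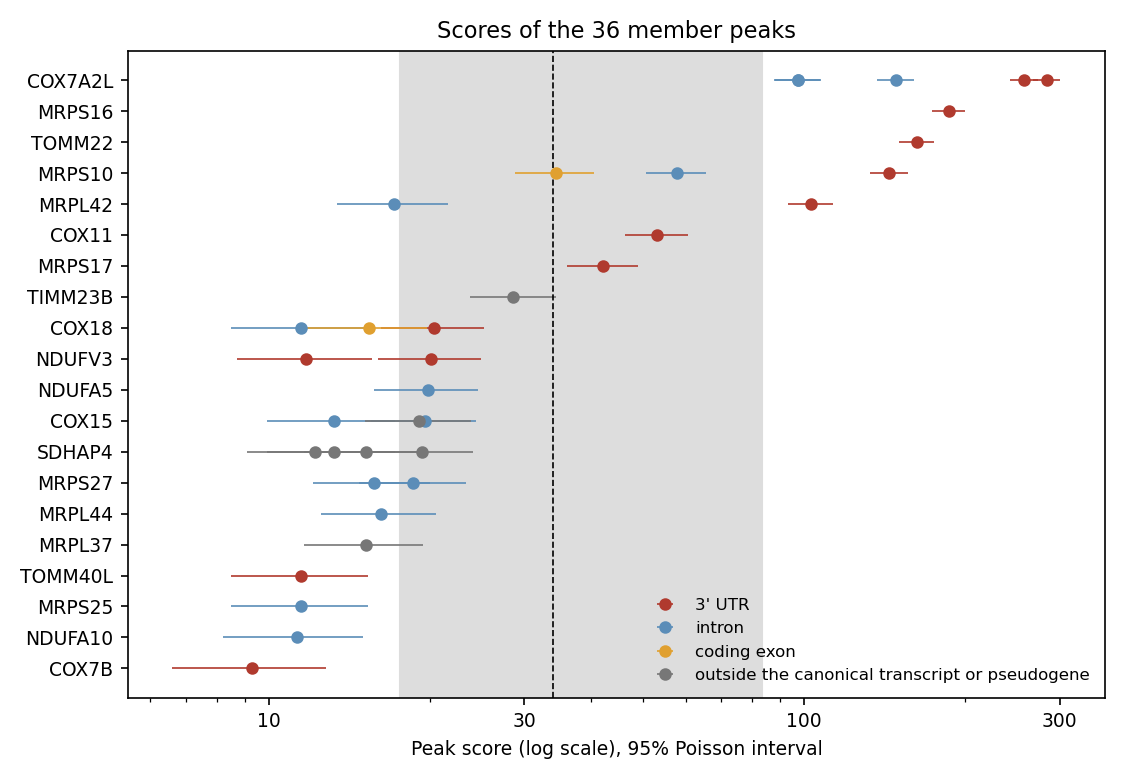
Scores of the 36 peaks by gene on a log axis, with 95% Poisson intervals for counting error, coloured by the place of the peak centre in the canonical transcript; grey band, the middle 50% of all peaks (17.6 to 83.4); dashed line, their median (34.0). The best peaks of the 7 genes at the top, COX7A2L to MRPS17, all lie in 3′ UTRs and to the right of the line.

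The highest scores of the set were on COX7A2L, whose product helps join complexes III and IV into supercomplexes. It ranked 252 of 3322 genes by its best peak and had 5 peaks, the most of any member. A peak on the minus strand, that of the gene, at chr2:42350606-42350952 (hg38) scored 284.1 (268.0 to 300.9), and next to it a peak on the opposite strand at chr2:42350956-42351302 scored 257.4 (242.1 to 273.5). Their intervals overlap. The list calls both a non-coding exon, after a non-coding RefSeq transcript of the gene, while in the canonical GENCODE transcript both centres lie in the 3′ UTR of exon 3. A second pair flanked exon 2, with 97.4 (88.1 to 107.4) at chr2:42353275-42353621 on the plus strand and 97.2 (87.8 to 107.2) at chr2:42352931-42353277 on the minus strand. The 2 peaks of this pair were alike in score, their starts 344 bases apart, and the starts in the 3′ UTR pair were 350 bases apart. A further peak at chr2:42360761-42361107, scoring 148.1 (136.5 to 160.3), began in exon 1 and had its centre 156 bases into intron 1. Its focus ratio, a fraction that describes how its reads lie about its centre, was 0.957, a value of at least 0.95 being found in 0.777% of all peaks and in 18 of the 463 peaks (3.89%) that the list, as here, places at a promoter. COX7B, subunit VIIb of cytochrome c oxidase, had the lowest best score of all members, 9.3 (6.6 to 12.8), at chrX:77905938-77906284 in its 3′ UTR and on the strand opposite to the gene.

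**Figure D4:**
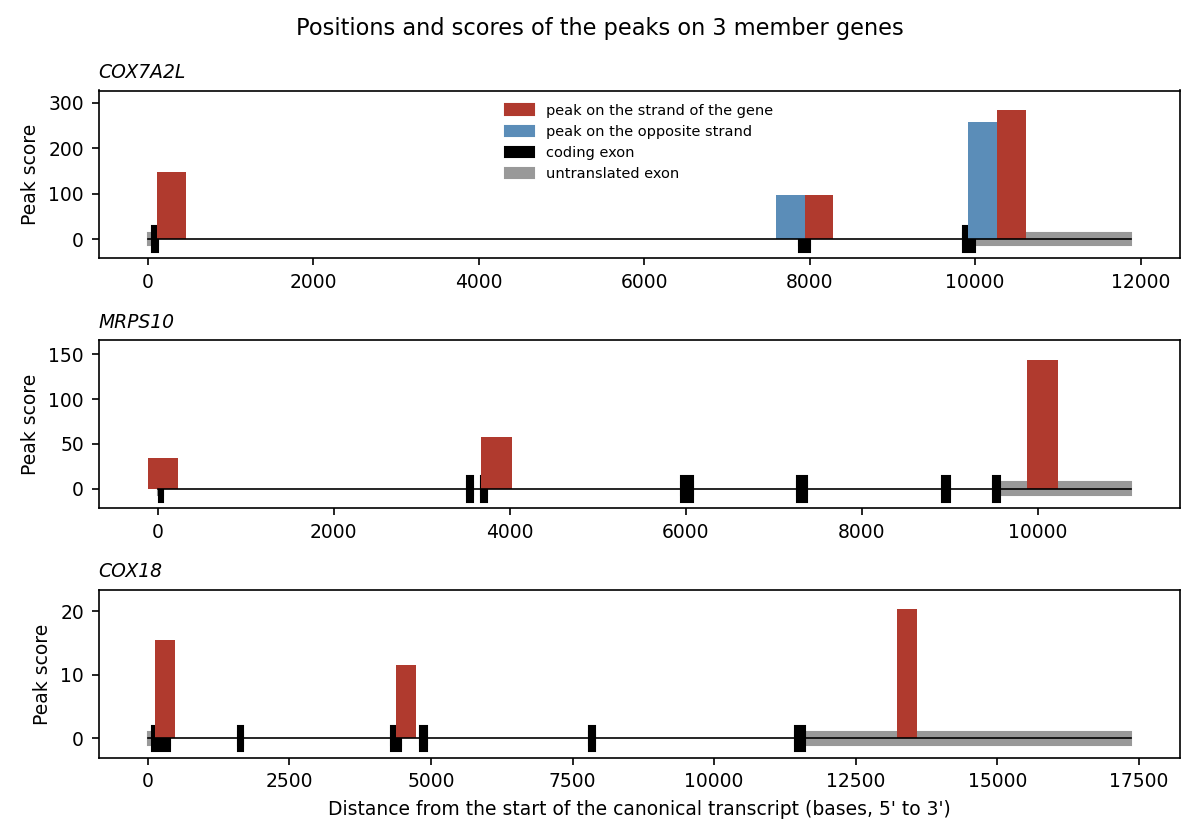
Peaks (bars, width and height to scale) on the canonical transcripts of COX7A2L, MRPS10 and COX18 by distance from the transcript start, with exons drawn below; bar height is the peak score, on a separate scale for each gene. Each gene has a peak at its first exon, a peak at an inner exon and its highest peak in the 3′ UTR, and COX7A2L has both of its inner and 3′ peaks in pairs on opposite strands.

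The sites below are the most T-rich 30 bases within the 3′ UTR part of the best peak, for the 8 members with the highest 3′ UTR peaks. They are shown because HuR is known for U-rich targets, and were read from hg38 on the strand of the gene (T stands for U). Capitals mark ATTTA and runs of 5 or more T.
COX7A2L, chr2:42350753-42350782, minus strand: TTTTTTccattttgcagtaaaatgttaaat
MRPS16, chr10:73250386-73250415, minus strand: taatgcatattctcTTTTTTTTTTTTTTTT
TOMM22, chr22:38684190-38684219, plus strand: attaacgactgTTTTTTTTTTTTTTTTTTa
MRPS10, chr6:42207908-42207937, minus strand: gtgttcgtacccttaTTTTTTTTTaagatt
MRPL42, chr12:93501692-93501721, plus strand: TTTTTgtgtgtctactgtgATTTAagtatt
COX11, chr17:54962177-54962206, minus strand: ATTTAaattcttatttcaaatttgatttgt
MRPS17, chr7:55956126-55956155, plus strand: tcTTTTTTTTTTTTgagctggagtttcact
COX18, chr4:73056341-73056370, minus strand: tgattttaaacctgtttatttgtaaggatt
A run of 16 T stood in the site of MRPS16, 18 in that of TOMM22, 12 in that of MRPS17 and 9 in that of MRPS10. The site of COX7A2L held a run of 6, and no ATTTA was found in its best peak. The sites of MRPL42 and COX11 held the pentamer, and neither feature was found in that of COX18. The sites were chosen for their T content, so the runs of T in them are no measure of enrichment. A run of 5 T was found in 76.9% of member peaks within canonical 3′ UTRs and in 78.2% of all such peaks. The peaks of TOMM22 and MRPS17 were on the strand opposite to the gene.

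Of the factors that assemble complex IV, COX11, which delivers copper to the catalytic subunit, had 1 peak at chr17:54962057-54962403 scoring 53.1 (46.3 to 60.7). The list calls it a transcript end and names it for the neighbour STXBP4 in its gene column, whereas its centre lies in the 3′ UTR of COX11. COX18, a membrane insertase for subunit 2, had 3 peaks on its own strand. The best, 20.3 (16.2 to 25.2), was in the 3′ UTR at chr4:73056133-73056479, and the others were in exon 1 (15.4) and 90 bases into an intron (11.5). The interval of the best overlaps that of the exon 1 peak (11.8 to 19.7) and lies above that of the intronic one (8.5 to 15.3). COX15, which makes the heme A of the enzyme, had 3 peaks, led by 19.6 (15.5 to 24.4) at chr10:99726712-99727058 in an intron, where CUTC overlaps on the opposite strand and the list's detailed annotation names an AluY repeat. The peak of 13.2 overlapped CUTC as well. The COX15 peak of 19.1 lay 14605 bases beyond the canonical exons, inside ENTPD7, and was given to COX15 through a longer RefSeq transcript. Thus all 3 COX15 peaks overlapped another protein-coding gene.

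Complex I, which oxidises NADH, had peaks on 3 accessory subunits. NDUFV3, of the NADH-binding flavoprotein part, had 2 peaks in its 3′ UTR, 20.1 (16 to 24.9) at chr21:42909329-42909675 and 11.7 (8.7 to 15.6) about a kilobase on. NDUFA5, of the matrix arm, had 19.8 (15.7 to 24.6) at chr7:123550167-123550513, 130 bases from an exon. NDUFA10, a subunit related to nucleoside kinases, had 11.3 (8.2 to 15) at chr2:240022247-240022593, on the opposite strand and 80 bases from an exon. All 4 peaks were below the median of all peaks. None of the 8 protein-coding genes of complex II was listed. The pseudogene SDHAP4 had 4 peaks between 12.2 and 19.3, the best at chr3:197613325-197613671 (15.3 to 24.1), on both strands. The best peak was annotated as a transcript end and lay outside the RefSeq span of the pseudogene, though within a longer GENCODE span of that name. It was 1 of 344 pseudogenes whose names fit the pattern, and reads of SDHA and its copies could not be told apart in the list.

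In the small subunit of the mitochondrial ribosome, the head of the order was MRPS16, with a single peak of 186.2 (173.2 to 199.9) at chr10:73250309-73250655 in the 3′ UTR, where the antisense RNA DNAJC9-AS1 also lies. MRPS10 followed with 144.1 (132.7 to 156.3) at chr6:42207636-42207982 in the 3′ UTR, and the intervals of these genes do not overlap. MRPS10 had 2 further peaks, 57.8 (50.6 to 65.6) beside exon 3 and 34.3 (28.8 to 40.4) at the transcript start. The peak at the start had a focus ratio of 0.966, and with that of COX7A2L it made 2 of 36 peaks at 0.95 or more. MRPS17 had 42.1 (36 to 48.9) at chr7:55955999-55956345, in its 3′ UTR but on the opposite strand and within the span of NIPSNAP2. MRPS27, a pentatricopeptide repeat protein, had 2 intronic peaks, 18.6 (14.7 to 23.3) at chr5:72313656-72314002 and 15.7 (12.1 to 20), and the latter was named for MAP1B in the gene column. MRPS25 had 11.5 (8.5 to 15.3) at chr3:15057075-15057421, 2121 bases from the nearest exon, the farthest of the intronic peaks within member genes.

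In the large subunit, MRPL42 led with 103.0 (93.4 to 113.3) at chr12:93501516-93501862, in the 3′ UTR of the canonical transcript, and had a second peak of 17.1 (13.4 to 21.6) on the opposite strand in an intron, over an L2c repeat. MRPL44, a ribonuclease III-like protein, had 16.2 (12.5 to 20.5) at chr2:223963496-223963842, 87 bases from an exon. MRPL37 had 15.2 (11.6 to 19.4) at chr1:54226117-54226463, past its last exon, where the only annotated gene is SSBP3 on the other strand. No other of the 49 genes of the large subunit was listed.

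Of the import genes, TOMM22, the central receptor of the TOM complex, had 162.2 (150.1 to 175.1) at chr22:38683924-38684270 in the 3′ UTR, on the strand opposite to the gene. Its interval overlaps that of MRPS16, so these genes were not ordered. TOMM40L, a relative of the channel protein TOMM40, had 11.5 (8.5 to 15.3) at chr1:161230334-161230680, in its 3′ UTR and within NR1I3 on the other strand. TIMM23B, a copy of the channel gene TIMM23, had 28.6 (23.7 to 34.3) at chr10:49941679-49942025, just before its start and within PARG. TOMM22 was thus the only import gene whose peak passed the median score and overlapped no other protein-coding gene. The TIMM23B and MRPL37 peaks lay outside both the RefSeq and the GENCODE span of the gene they were given to, and the COX15 peak of 19.1 outside the GENCODE span but within the longer RefSeq span. Without these peaks 18 of the 20 genes remained. A further 4 peaks lay in the member and in another protein-coding gene, and 15 genes had a peak in their own span and in no other coding gene. Named pseudogene copies exist for 10 of the 19 coding genes, 12 of them for NDUFA5, and for these the counting of reads between copies is uncertain.

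By position, the list placed 7 of the 36 peaks in 3′ UTRs (19.4%, 9.75 to 35.0), against 14.6% of all peaks, and 15 in introns (41.7%), against 61.9%. The canonical transcripts placed more of them in 3′ UTRs, 13 of the 32 on coding genes (40.6%, 25.5 to 57.7), against 17.5% of all peaks placed in this way. These 13 peaks lie on 11 genes, with more than 1 on COX7A2L and NDUFV3. The interval takes peaks as independent and may be too narrow. The difference between the placements came from peaks that the list assigned to a non-coding transcript or to a transcript end, on COX7A2L, MRPL42, COX11, MRPS17, NDUFV3 and COX7B, while the COX15 peak within ENTPD7 was placed outside. Of the list's classes, transcript ends made up 6 of the 36 peaks (16.7%) and 1.48% of all. The 13 peaks in 3′ UTRs had a median score of 53.1 and the 14 in introns 17.85, and over the whole list the medians were 65.3 and 29.1. Members whose best score reached the median of all genes numbered 7, and in all 7 the best peak was in a canonical 3′ UTR. Among all coding genes at or above that score this was so in 41.7%. Below that score it was so in 4 of 12 members and in 23.5% of all coding genes.

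Intronic peaks on member genes lay close to exons. The distance from the centre to the nearest exon had a median of 105.5 bases over the 14 peaks, from 7 to 2121, and 100 over all intronic peaks of the list. When the centre was moved back by 173 bases against the strand of the peak, that is by the distance from its centre to its edge, 10 of the 14 (71.4%) fell in a coding exon, as did 68.7% of all intronic peaks of the list. The 4 intronic peaks with the highest scores on member genes show the borders they lie beside, printed in hg38 on the strand of the gene with the 20 bases of coding exon in capitals.
COX7A2L, end of exon 1, chr2:42361070-42361109, minus strand: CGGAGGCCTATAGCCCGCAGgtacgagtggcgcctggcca
COX7A2L, start of exon 2, chr2:42353324-42353363, minus strand: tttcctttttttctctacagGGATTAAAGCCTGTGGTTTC
COX7A2L, end of exon 2, chr2:42353192-42353231, minus strand: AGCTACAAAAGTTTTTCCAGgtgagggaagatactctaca
MRPS10, end of exon 3, chr6:42214100-42214139, minus strand: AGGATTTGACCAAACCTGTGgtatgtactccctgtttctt
In these the peak centre lay 156, 105, 108 and 106 bases into the intron, in the order printed. The exon 2 borders of COX7A2L are those flanked by its pair of peaks on opposite strands.

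Of the 36 peaks, 24 were on the minus strand and 12 on the plus strand, while the minus strand held 49.6% of all peaks. On member genes of the minus strand 18 of 25 peaks were on the strand of the gene, and on those of the plus strand 5 of 11. Together 23 peaks (63.9%) were on the strand of their gene, and 53.2% of all peaks were. The best peak was on the opposite strand in 7 genes, TOMM22, MRPS17, COX7B, MRPL44, MRPL37, NDUFA10 and SDHAP4, and 6 of these, all but SDHAP4, had no peak on their own strand. Since only 53.2% of all peaks were on the strand of their gene, the strand of a peak does not settle which RNA was bound. In these 6 genes, as in the other members, the member and an RNA from the other strand could not be told apart.

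ATTTA was found, on the strand of the gene, in 4 of the 7 peaks that the list places in 3′ UTRs (57.1%, 25 to 84.2) and in 52.7% of all such peaks. In the 13 peaks within canonical 3′ UTRs it was found in 7 (53.8%), against 52.6% of 2349. A run of 5 T was found in 10 of the 13 (76.9%) and in 78.2% of all. The longer TATTTAT was in 1 of the 13, that of COX7B, and in 7.96% of all. None of these shares was distinguishable from that of all 3′ UTR peaks at this number of peaks. The motifs were searched on 1 strand only, and overlapping copies each counted as a match.

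The gene column of the list, which names the gene with the nearest transcription start, gave another set. It named genes that fit the pattern at 94 peaks on 26 genes, among them the pseudogene SDHAP4 and the antisense gene NDUFB2-AS1. Of these peaks, 25 were also member peaks by their transcript, 26.6% of the 94 and 69.4% of the 36. By the gene column, 24 of the 212 protein-coding members would have had a peak, where 16.3% of all nuclear protein-coding genes had one. Of the other 69 peaks, 68 lay in transcripts of other genes and 1 in none. The highest of these, 812.0, was 1 of 6 named TIMM44 whose transcript is that of ELAVL1, the gene of HuR itself. Peaks named for the ATP synthase subunits ATP5PF (12 peaks) and ATP5F1E (3 peaks) belonged to transcripts of GABPA and PRELID3B. MRPL13 was named at 12 peaks in MTBP and SNTB1, SDHAF4 at 7, NDUFC1 at 4 in NAA15 and MRPS28 at 3 in TPD52. Thus 13 genes entered by the column alone and 7 by the transcript alone, among them COX11, COX15 and NDUFV3.

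**Figure D5:**
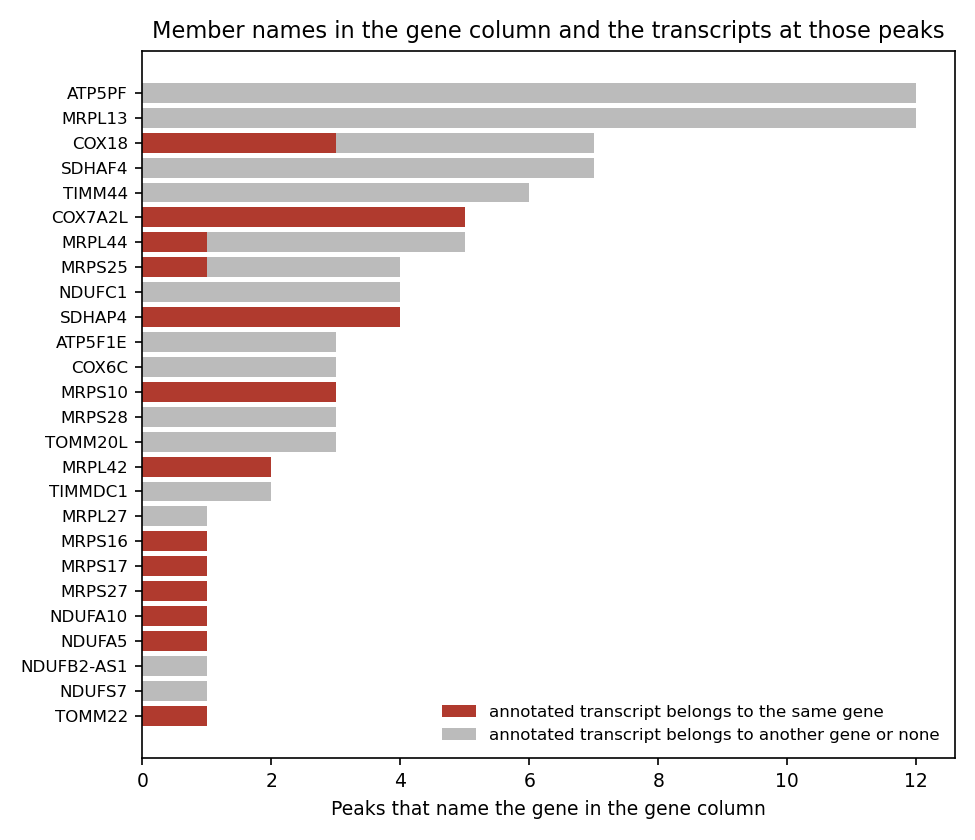
Peaks that name each of 26 genes whose symbol fits the pattern in the gene column of the list, split by whether the annotated transcript belongs to the same gene. The 26 include the pseudogene SDHAP4 and the antisense gene NDUFB2-AS1. ATP5PF and MRPL13, with 12 peaks each, have no peak on a transcript of their own, while all 5 peaks named COX7A2L lie on it.

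Genes of the same pathways under other names were read from 7 lists chosen with earlier results of these data known. Of 119 nuclear genes in 6 of them, 19 had a peak (16%), with the background at 15.4%, and their median transcript was 2317 bases. Genes of mitochondrial translation and ribosome assembly had 6 of 22, led by MTERF3 (180.8), whose peak lay outside the gene, and GFM1, an elongation factor, with 43.3 in its 3′ UTR. Genes of mitochondrial DNA and its transcription had 4 of 17. TFAM, which packages and transcribes mitochondrial DNA, had a best score of 313.7 (296.8 to 331.4) at chr10:58395337-58395683, in its 3′ UTR, with an interval that overlaps that of COX7A2L. GABPB1 and GABPA, the subunits of a transcription factor of respiratory chain genes, had 10 and 12 peaks with best scores of 104.2 and 81.5. The fourth, the coactivator PPARGC1B, had 1 peak of 11.3. Import and processing genes under other names had 4 of 19, with GRPEL2, a nucleotide exchange factor of the import motor, at 304.9 (chr5:149351587-149351933, 3′ UTR). Respiratory chain factors under other names had 3 of 37 (HIGD1A 50.2, COA7 13.2, LYRM7 10.3), and mitochondrial ribosomal proteins under other names 0 of 5. The citric acid cycle and pyruvate dehydrogenase had 2 of 19, SUCLA2 (29.6) and IDH3A (19.6). None of the 13 respiratory chain genes encoded in mitochondrial DNA was listed, and the list holds 0 peaks on that genome.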

How the data were processed

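RIP-seq of MDA-MB-231 cells comprised 2 HuR and 2 IgG samples, stated to be biological replicates and grouped by antibody per the labels. Per the labels and methods, the authors aligned reads with STAR to hg38 and called peaks with HOMER; versions, settings, pooling and how IgG entered the calling are not given in the sources used here. The deposited list gives a peak score, HOMER's own value with no stated scale, and, per the file headers, the focus ratio of each peak as a fraction from 0 to 1. It has no column for a single sample, so depth per sample is unknown.

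Host genes were read from the annotated transcript of each peak through RefSeq (13835 of 13929 transcripts matched, 13892 with the list's own pairs). Peaks of 347 bases were placed on GENCODE 44 canonical transcripts in hg38, found for 19134 of 20039 genes. Members and lists were chosen with earlier results of these data known. Every member gene with a peak was named within its group, with the values of its best peak. Shares have 95% Wilson intervals and scores exact Poisson intervals over steps of 0.2447. Values were computed in Python 3.11.15 (pandas 2.3.3, numpy 2.4.6, pysam 0.24.0, scipy 1.17.1), and the functions were tested on simulated data. No test between HuR and IgG was possible. Alternatives covered the gene assignment, score minimum, strand, placement, motif and score per gene.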

Additional observations from a re-analysis of the deposited data

How the results depend on the processing

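Of 24 alternatives over 5 results, 16 left the value within 1.5 times, or within its interval, with its sign kept, and 6 moved it further. The other 2 reversed the sign of the log2 ratio of best scores, to values still inside its interval. With scores at or above the median of all peaks, the members with a peak fell from 20 to 7 and the peaks from 36 to 13, and the gene column raised the peaks to 94. Between 14 and 26 genes were counted under the other alternatives, 3 of which (protein-coding genes, 19; peaks overlapping the gene, 18; and no other coding gene, 15) were chosen after seeing the data, as were the 3′ UTR share over peaks that overlap the gene and the score without COX7A2L. The 3′ UTR share rose from 19.4% to 40.6% with canonical transcripts, at the centre and with the peak moved back. The log2 ratio of best scores, -0.77, turned to 0.10 with the gene column and to 0.51 with exon and UTR peaks, which leave 10 members (medians 61.65 and 43.3). The share of 3′ UTR peaks with ATTTA, 57.1%, was 0.0% for TATTTAT. No paired analysis was possible because single samples have no values here, and the HuR against IgG test, the replicate block and leaving out replicates were not run for the same reason. The depth behind the list is unknown, so no limit of detection can be given for the 193 members without a peak.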
